A study of Homo sapiens with 4 samples.

Results

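NFE2L2, the gene for the transcription factor NRF2, and 9 of its well-known target genes were examined in breast cancer cells with raised VIRMA. The 10 genes were chosen by name (NFE2L2, NQO1, HMOX1, GCLC, GCLM, TXNRD1, SRXN1, ME1, FTL and FTH1) and were 10 of the 56271 gene rows of the count table. All 10 were expressed above the filter on low values, which kept 12205 genes with more than 1 RPKM (reads per kilobase of exon, scaled to library size) in at least 2 libraries.

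The libraries were poly-A RNA-seq of SKBR3, an established HER2-amplified breast cancer cell line. The eGFP control group (2 libraries) came from cells transduced with a lentiviral vector carrying eGFP alone behind the human ubiquitin C promoter. The VIRMA-overexpressing group (2 libraries) came from cells carrying the same vector type with HA-tagged full-length VIRMA joined to eGFP through a p2A peptide. VIRMA is the largest subunit of the complex that writes N6-methyladenosine on RNA, and the comparison asks which transcripts differ when it is in excess. In both, cells positive for eGFP were sorted and then grown on. Both groups came from 1 line, and the study calls its duplicates biological without saying whether they came from separate transductions. The p-values below therefore measure the spread between these libraries. The culture text shared by all 4 labels describes a chamber with nearly no oxygen and a protein lysate. The study's methods give that chamber and lysis for a separate hypoxia experiment, and their mRNA-sequencing section mentions no hypoxia. By the labels alone the oxygen level under which the RNA was collected is uncertain, and the text is the same for both groups.

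VIRMA, listed under its older symbol KIAA1429, had counts of 710 and 682 in the control cells and 3437 and 3460 with VIRMA overexpressed, a 4.89-fold difference (log2 fold change 2.29, SE 0.0685). Library totals ran from 81446932 to 86375474 counts. Mitochondrial genes took 11.35% and 11.6% of counts in the controls against 12.83% and 12.81% with VIRMA overexpressed, and the part of this difference in the results below was not tested. Of 12 markers of a luminal HER2-positive line, 11 passed the filter, all but CDH1, which had 5 to 33 counts. ERBB2 had between 580259 and 600215 counts. Of the 11, 3 rose and 4 fell at an edgeR adjusted p below 0.05, where 35.1% and 35.9% of all tested genes did so. KRT7 had the largest rise (log2 fold change 0.49) and KRT8 the largest fall (-0.51). In bulk RNA, fewer cells of a type and less RNA per cell cannot be told apart.

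In unstressed cells KEAP1 holds NRF2 and hands it to a CUL3 ubiquitin ligase for destruction. Oxidants and electrophiles modify KEAP1, NRF2 then accumulates, pairs with small MAF proteins and binds the antioxidant response element (ARE) near genes for glutathione synthesis, thioredoxin recycling, quinone reduction, NADPH supply, haem breakdown and iron storage. BACH1 occupies the same elements as a repressor, most familiarly at HMOX1. Much of NRF2's control is on the protein, so its mRNA level is not a reading of its activity, which was not measured in these libraries. Ferritin has a second layer of control, since iron regulatory proteins bind an iron-responsive element (IRE) in its mRNAs and block their translation when iron is scarce.

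The promoter sequences of the members are shown because the ARE is the feature that makes them a group. RefSeq (GRCh38.p14) start sites gave windows of 300 bases, from 250 before to 50 after the start, for 8 of the 10 members (all but HMOX1 and FTH1). The ARE core TGACNNNGC, searched on both strands, was in the windows of GCLM, ME1 and TXNRD1. ME1 and TXNRD1 each held a further core 11 bases after and 8 bases before a start. It is a loose pattern, present in 13.3% of all 35116 windows. The stretches below are written on the strand of the gene with the core in capitals (the GCLM core and that of the later TXNRD1 start are read on the opposite strand).
GCLM: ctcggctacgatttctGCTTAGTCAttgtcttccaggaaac
ME1: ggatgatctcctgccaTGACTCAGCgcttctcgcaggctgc
TXNRD1, first start: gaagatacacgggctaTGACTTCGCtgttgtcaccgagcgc
TXNRD1, later start: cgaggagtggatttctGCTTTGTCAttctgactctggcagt
The GCLM stretch lies at chr1:93909440-93909480 (minus strand), with the core 34 bases before the start. The ME1 stretch lies at chr6:83431164-83431204 (minus strand), with the core 137 bases before the start. The TXNRD1 stretches lie at chr12:104215664-104215704 and chr12:104286914-104286954 (plus strand), 99 and 102 bases before 2 alternative starts. The other windows held no such letters, which says nothing of elements farther away. The window of FTL held the IRE loop pattern (CNNNNN followed directly by CAGTGN) on the gene strand, 32 bases after the start, within its 5′ untranslated region, and 10.1% of all windows held it on their gene strand. ME1 held it too, but 27 bases before its start.
FTL: tgtctcttgCTTCAACAGTGTttggac
This stretch lies at chr19:48965332-48965358 (plus strand), with the loop pattern in capitals.

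With VIRMA in excess the members did not move together. NFE2L2, FTH1 and FTL were higher, HMOX1, SRXN1, TXNRD1, ME1 and GCLM were lower, and the values of NQO1 and GCLC overlapped between the groups. By edgeR's quasi-likelihood test with Benjamini-Hochberg adjustment over all 12205 genes, 3 members rose and 5 fell at an adjusted p below 0.05. The same threshold was passed by 71% of all tested genes, 35.1% higher and 35.9% lower, so 8 of 10 members is near the background. The groups did not overlap for these 8 members, against 84.3% of all tested genes (42.7% higher and 41.6% lower). With edgeR, none of the 10 passed the stricter pair of thresholds, which adds a log2 fold change above 1 or below -1 and which 7.46% of tested genes passed. By an unadjusted p below 0.05 the number was 8, as with the adjusted p, none of them past the fold threshold. With DESeq2, the tool for which the study set these thresholds, 1 member passed both, HMOX1, and limma-voom placed 0. The median log2 fold change of the members was -0.13, beside 0.01 for all tested genes, and it was -0.04 when libraries were scaled by their totals alone. Normalised levels in CPM, a count scaled to a fixed library size after correction by the trimmed mean of M values (TMM), when summed over the members, were 1049 and 1043 in the control libraries and 1056 and 1057 in the VIRMA-overexpressing libraries.

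**Figure D1:**
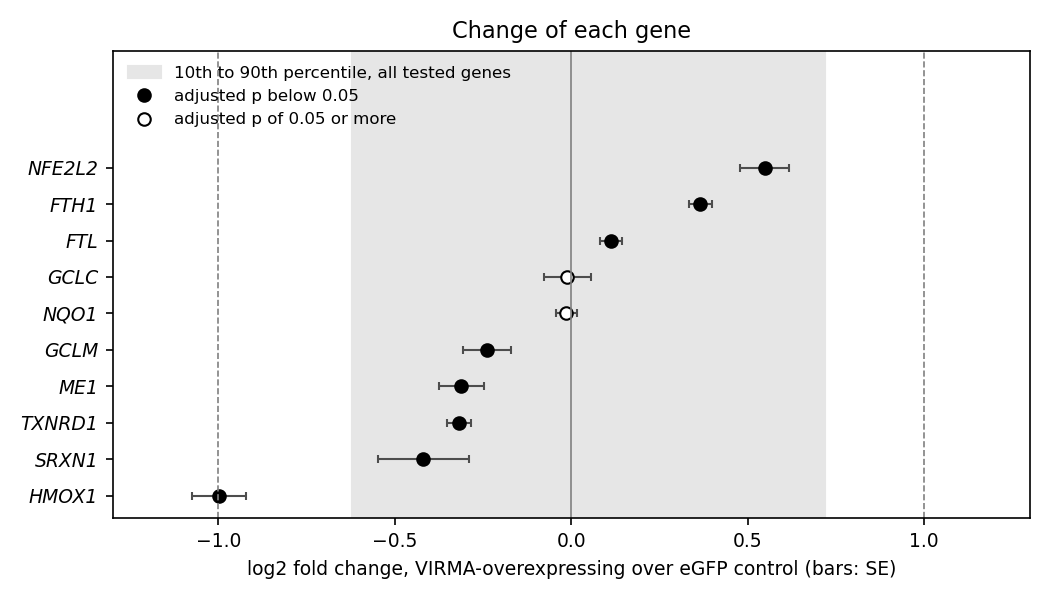
Log2 fold change of each member, VIRMA-overexpressing over eGFP control, with bars of 1 standard error from edgeR; the grey band spans the 10th to 90th percentile of all 12205 tested genes and dashed lines mark 1 and -1. HMOX1 sits at the lower dashed line, NFE2L2 is the highest point, and NQO1 and GCLC lie at 0.

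NFE2L2 (chr2:177227595-177392697, minus strand, GRCh38) was the member with the largest rise. It was counted 1449 and 1599 times in the control pair and 2400 and 2123 times in the VIRMA-overexpressing pair. Both VIRMA-overexpressing libraries lay above both controls. The normalised level went from 18.4 ± 1.20 to 27.0 ± 1.88 CPM (SD, n = 2 per group), a 1.46-fold difference with a log2 difference of 0.55 ± 0.0693 (SE, edgeR, adjusted p = 1.05e-08). Over the alternative scalings, filters, tools and left-out libraries the log2 fold change ran from 0.48 to 0.63.

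HMOX1 (chr22:35380361-35394214, plus strand), the inducible haem oxygenase that releases iron from haem, was the member with the largest change. It had control counts of 1848 and 2028 and VIRMA-overexpressing counts of 949 and 1017. The groups were far apart relative to the gap within each, at 23.5 ± 1.44 against 11.7 ± 0.773 CPM (SD, n = 2). The log2 difference was -0.999 ± 0.0770 (SE, edgeR, adjusted p = 6.55e-14), and 92% of tested genes had a smaller change in either direction. HMOX1 fell just short of the fold threshold and crossed it in 5 of the other scalings, filters and tools, and when control replicate 1 (-1.06) or VIRMA-overexpressing replicate 2 (-1.07) was left out. Its direction and its adjusted p call held in every setting tried, from -1.07 to -0.92.

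Haem-bearing and iron-recycling cells use HMOX1 heavily, so markers of those cells were read in the same libraries. Of 13 erythroid genes, 12 had counts, 9 were lower in both VIRMA-overexpressing libraries than in both controls and 1, GATA1, was higher (0 and 2 against 7 and 8 counts), where the groups lay apart for 41.6% of all tested genes in the lower and 42.7% in the higher direction. Their summed level was 28.4 and 20.7 CPM in control cells and 0.649 and 0.592 CPM in the VIRMA-overexpressing libraries. Nearly all of it was HBB, the beta-globin gene, with 2137 and 1543 counts in the controls but 0 wherever VIRMA was overexpressed. The red cell surface gene GYPB had 0 throughout. Of 15 macrophage and leukocyte genes, 7 were lower and 3 (CD163, MARCO and CD3E) higher without overlap, shares near or below those of all tested genes. Their sum was 31.3 and 28.5 against 16.1 and 16.2 CPM. That sum was mostly CSF1R (2285 and 2187 against 1188 and 1161 counts), while PTPRC, which marks all leukocytes, had 23 and 13 against 3 and 0 counts, and MS4A1 had 0 throughout. Fibroblast and endothelial genes summed to 21.6 and 20.0 against 16.5 and 18.0 CPM. Of the 10 genes of that list, 6 were lower and 1, CDH5, was higher without overlap. The 2 that passed the filter went opposite ways, COL1A1 falling by 0.62 and CDH5 rising by 0.47 (edgeR adjusted p = 0.00114). The summed levels of the 3 lists differed between the groups without overlap, and their part in the HMOX1 and ferritin results was not tested.

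NQO1 (chr16:69706996-69726951, minus strand), the quinone reductase most often used as a readout of NRF2, did not pass the test. It was counted 20234 and 20018 times in controls and 20318 and 20121 times with VIRMA in excess. The normalised levels overlapped, at 243.6 ± 2.93 and 241.3 ± 2.44 CPM (SD, n = 2). The log2 difference was -0.01 ± 0.0309 (SE, edgeR, adjusted p = 0.709). It turned to 0.07 (adjusted p = 0.0427) when libraries were scaled by totals alone.

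GCLC and GCLM encode the catalytic and modifier subunits of glutamate-cysteine ligase, the rate-limiting enzyme of glutathione synthesis. GCLC (chr6:53497341-53616970, minus strand) had counts of 2287 and 2052 in the control cells and 2333 and 2038 with VIRMA overexpressed. The replicates of each group were farther apart than the group means, 26.3 ± 2.13 and 26.1 ± 2.05 CPM (SD, n = 2), and the log2 difference was -0.01 ± 0.0672 (SE, edgeR, adjusted p = 0.896). Its sign changed in 4 of the alternatives, none of which called it.

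GCLM (chr1:93885205-93909456, minus strand), whose promoter core is printed above, was counted 1883 and 1890 times in the control pair and 1689 and 1555 times in the VIRMA-overexpressing pair. Both VIRMA-overexpressing libraries were below both controls, at 19.4 ± 0.802 against 22.8 ± 0.0410 CPM (SD, n = 2). GCLM fell by 0.24 ± 0.0677 in log2 units (SE, edgeR, adjusted p = 0.00219), and by 0.15 with library totals alone (adjusted p = 0.0429). The ratio of GCLM to GCLC, per exon length and within each library, was 1.29 and 1.44 for the control pair against 1.13 and 1.19 for the VIRMA-overexpressing pair. The ratios did not overlap, and an exact permutation test of 2 against 2 gave p = 0.333, the smallest it can give.

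TXNRD1 and SRXN1 recycle thiol antioxidants: thioredoxin reductase returns electrons from NADPH to thioredoxin, and sulfiredoxin repairs over-oxidised peroxiredoxins. TXNRD1 (chr12:104215779-104350305, plus strand) had control counts of 22170 and 22683 and VIRMA-overexpressing counts of 19126 and 17361. The lower pair was clear of the upper pair, at 217.6 ± 11.2 against 271.4 ± 3.19 CPM (SD, n = 2). TXNRD1 fell by 0.32 ± 0.0332 in log2 units (SE, edgeR, adjusted p = 1.40e-10).

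SRXN1 (chr20:646615-653370, minus strand) was counted 624 and 599 times in controls and 408 and 518 times with VIRMA in excess. It was the least counted member, and its VIRMA-overexpressing libraries differed most from each other relative to their mean, at 5.53 ± 1.02 against 7.40 ± 0.247 CPM (SD, n = 2). SRXN1 fell by 0.42 ± 0.129 in log2 units (SE, edgeR, adjusted p = 0.00437). Without VIRMA-overexpressing replicate 1 the value was -0.24 and no longer passed (adjusted p = 0.162), and without VIRMA-overexpressing replicate 2 it was -0.62, so the size of the SRXN1 change rests on which of these libraries is kept.

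ME1 (chr6:83210389-83431071, minus strand), the cytosolic malic enzyme that makes NADPH, had counts of 2131 and 2257 in the control cells and 1802 and 1784 with VIRMA overexpressed. The replicates lay close together and the groups apart, at 26.6 ± 0.961 and 21.4 ± 0.212 CPM (SD, n = 2). ME1 fell by 0.31 ± 0.0642 in log2 units (SE, edgeR, adjusted p = 5.88e-05). Of the 3 genes with an ARE core in the promoter window (GCLM, TXNRD1 and ME1), each fell, by 0.24 to 0.32, where 35.9% of all tested genes fell. Of the 5 members whose windows held no core, SRXN1 fell, NFE2L2 and FTL rose, and NQO1 and GCLC did not pass the test. HMOX1 and FTH1 had no window, and elements outside the windows were not searched. A link between the core and the direction of change was not tested.

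The ferritin genes went the other way. FTH1 encodes the heavy chain, which oxidises iron as it enters the ferritin shell, and FTL the light chain, which aids its mineral core. FTH1 (chr11:61959718-61967660, minus strand) was counted 19169 and 18353 times in the control pair and 24257 and 24755 times in the VIRMA-overexpressing pair. Both VIRMA-overexpressing libraries were higher, at 292.5 ± 9.18 against 227.1 ± 7.99 CPM (SD, n = 2). The log2 difference was 0.37 ± 0.0326 (SE, edgeR, adjusted p = 2.86e-12).

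FTL (chr19:48965301-48966878, plus strand) had control counts of 14642 and 14991 and VIRMA-overexpressing counts of 16253 and 16233. The groups were apart by a small margin, 179.3 ± 2.19 against 193.9 ± 3.13 CPM (SD, n = 2). The log2 difference was 0.11 ± 0.0321 (SE, edgeR, adjusted p = 0.0023). The FTL value moved with the processing. It was 0.20 with library totals alone, and 0.07 and not past the threshold with a looser filter on low counts (adjusted p = 0.0827) or 0.08 with none (adjusted p = 0.0780).

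FTH1 and FTL chains build one mixed shell, so their ratio was taken within each library. The ratio of FTH1 to FTL, per exon length, was 0.566 and 0.530 for the control pair against 0.646 and 0.660 for the VIRMA-overexpressing pair. The ratio was higher in both VIRMA-overexpressing libraries, by 0.25 on the log2 scale. An exact two-sided permutation test gave p = 0.333, the smallest possible with 2 against 2. Together the ferritin genes took 0.0396% and 0.0386% of all counts for the control pair against 0.0488% and 0.0503% for the VIRMA-overexpressing pair.

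Ferritin genes have many processed copies in the genome, and how reads that match several places were counted is not given in the sources used here. Of 25 FTH1 pseudogene rows, 18 held counts, which summed to 155 and 200 for the control pair against 178 and 208 for the VIRMA-overexpressing pair. Of 16 FTL pseudogene rows, 6 held counts, which summed to 18 and 34 against 17 and 33. The FTH1 sums were at most 1.09% of FTH1 itself, and adding the pseudogene rows to the parent genes left both ferritin calls as they were. FTH1 also shares 1267 of its 2030 exonic bases with BEST1 on the opposite strand, and BEST1 was counted 46 and 36 times in controls and 647 and 707 times with VIRMA in excess. The kit keeps strand, but the strand setting of the counting is not given in the sources used here, so reads of FTH1 and BEST1 cannot be told apart with certainty.

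**Figure D2:**
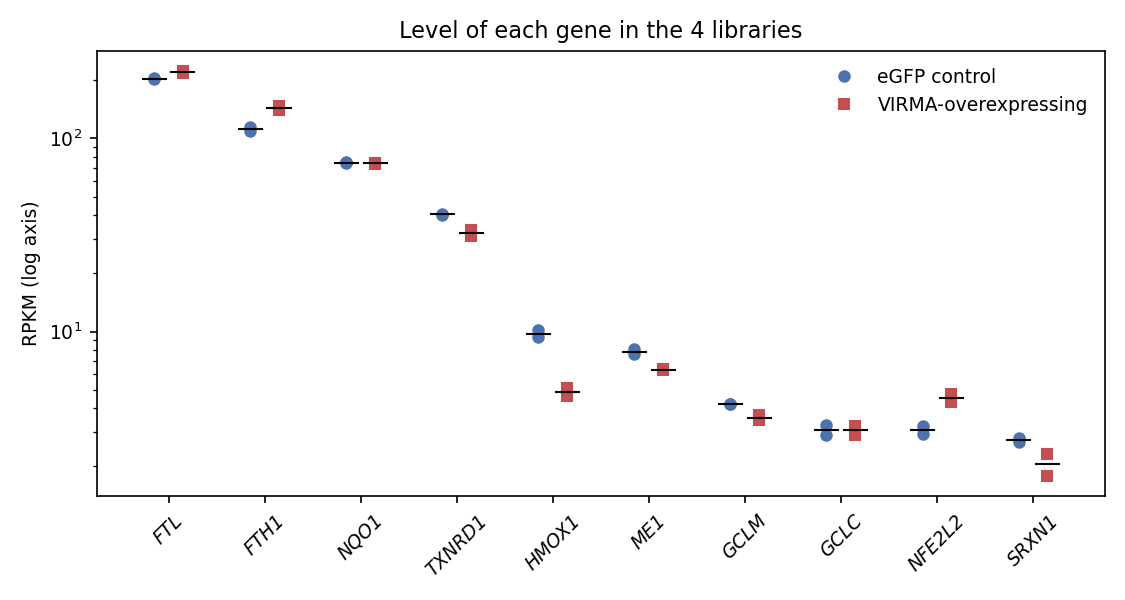
Level of each member in RPKM, on a log axis, with 1 point per library and a bar at the mean of each group of 2. FTL and FTH1 are the highest and SRXN1 the lowest by full exonic length, and the VIRMA-overexpressing points lie apart from the control points for all members but NQO1 and GCLC.

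By level per exon length, the ferritin genes led. In the controls the mean RPKM was 204.2 for FTL, 111.9 for FTH1, 74.9 for NQO1 and 40.5 for TXNRD1, a gap from the next member, HMOX1 at 9.75. ME1 (7.88), GCLM (4.21), GCLC (3.10), NFE2L2 (3.08) and SRXN1 (2.74) followed. Among neighbours in this order, only GCLC and NFE2L2 overlapped between control libraries. In the VIRMA-overexpressing libraries the upper 4 kept their places, at 220.8, 144.1, 74.2 and 32.4 RPKM. Below them ME1 (6.35) came before HMOX1 (4.88) and NFE2L2 (4.51), which overlapped, and then GCLM (3.57), GCLC (3.08) and SRXN1 (2.05). Some places in the order depend on how the length is taken. Of the 2698 exonic bases of SRXN1, 2292 are shared on the same strand with a gene row named only after a genomic clone, with 1 to 4 counts, and per unshared length SRXN1 stood at 18.2 RPKM in control cells and 13.6 RPKM with VIRMA overexpressed. Taking the bases FTH1 shares with BEST1 out of its length put FTH1 at 297.6 and 383.4 RPKM, above FTL. Both the SRXN1 and the FTH1 levels per unshared length keep all counts of the gene and shorten only the length. They hold only if no reads of the shared bases were counted for the gene, which was not tested. Of the exonic bases of NFE2L2, NQO1 and GCLC, 20.9%, 17.7% and 6.33% are shared with another row on either strand, and those of HMOX1, GCLM, TXNRD1, ME1 and FTL are not shared.

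Genes around the members were read from 7 lists that hold the partners and neighbours of the pathway, 138 genes in all, of which 109 passed the filter on low values. Of these 109, 32 rose and 62 fell at an edgeR adjusted p below 0.05, beside 35.1% and 35.9% of all tested genes. Their median log2 fold change was -0.16. The same shares, 35.1% higher and 35.9% lower, are the background for the counts of each list below. Past both thresholds were 3 that rose and 7 that fell, where 4.52% and 2.93% of all tested genes did so. The count that rose past both was 5 with upper-quartile factors or library totals and 6 with the 3 other filters on low counts.

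**Figure D3:**
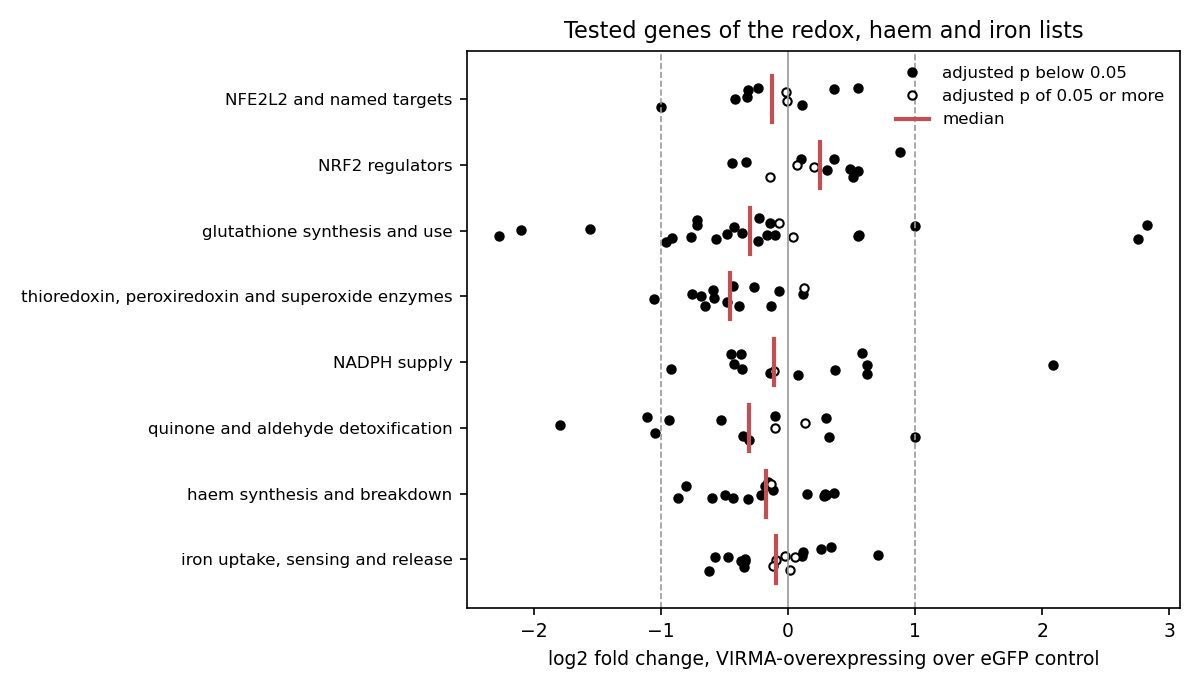
Log2 fold change of the tested genes of each list, VIRMA-overexpressing over eGFP control, with 1 point per gene and a red bar at the list's median. The thioredoxin, peroxiredoxin and superoxide list has the lowest median (-0.46) and the NRF2 regulators the highest (0.25).

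Of 12 tested regulators of NRF2, 7 rose and 2 fell, with a median of 0.25. KEAP1, which holds NRF2 for degradation, had counts of 3201 and 3281 in the control cells and 2578 and 2636 with VIRMA overexpressed. KEAP1 fell by 0.33 ± 0.0541 (SE, edgeR, adjusted p = 1.32e-06), and so did RBX1, a subunit of the same ligase, by 0.44. BACH1, the repressor at HMOX1, rose from 944 and 935 to 1205 and 1247 counts, a log2 difference of 0.36 ± 0.0853 (SE, edgeR, adjusted p = 0.000295). NFE2L1, a relative of NFE2L2 known for driving proteasome genes, had the largest rise of the list at 0.88, and GSK3B, a kinase that marks NRF2 for another ligase, rose by 0.55.

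Of 24 tested genes of glutathione synthesis and use, 5 rose and 17 fell, with a median of -0.30 and with the extremes far apart. SLC7A11, the cystine carrier that feeds glutathione synthesis, was counted 361 and 296 times in the control pair and 2408 and 2323 times in the VIRMA-overexpressing pair, a log2 difference of 2.83 ± 0.0910 (SE, edgeR, adjusted p = 7.86e-25). CHAC1, which breaks glutathione down, rose by 2.75. Both are textbook targets of ATF4, the transcription factor of the amino acid and stress responses. The part of ATF4, NRF2 or any other factor in these rises was not tested. GSTP1, which joins glutathione to electrophiles, fell by 2.27, from 9051 and 9284 to 1941 and 1914 counts. GPX2, a glutathione peroxidase, fell by 2.10, and GSR, which regenerates reduced glutathione, fell by 0.36.

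The thioredoxin, peroxiredoxin and superoxide enzymes leaned lower, with a median of -0.46. Of 14 tested genes, 12 fell and 1 rose, where 35.9% and 35.1% of all tested genes did so. TXN, the thioredoxin that TXNRD1 reduces, had control counts of 21230 and 21579 and VIRMA-overexpressing counts of 14231 and 13415, a fall of 0.65 ± 0.0320 (SE, edgeR, adjusted p = 2.09e-19). PRDX1, the peroxiredoxin that thioredoxin recharges, fell by 0.75, and MSRB1, a methionine sulfoxide reductase, fell by 1.05. CAT, which encodes catalase, was the gene that rose, by 0.12 (adjusted p = 0.0244). The summed level of the list was 2823 and 2808 CPM for the control pair against 2047 and 2045 CPM for the VIRMA-overexpressing pair.

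Of 13 tested genes of NADPH supply, 6 rose and 6 fell. PGD, a dehydrogenase of the pentose phosphate pathway, fell by 0.92. The mitochondrial and cytosolic folate dehydrogenases ALDH1L2 and ALDH1L1 rose by 2.09 and 0.63. Of 13 tested genes of quinone and aldehyde detoxification, 3 rose and 8 fell. AKR1B10, an aldo-keto reductase, fell by 1.79 and CBR1, a carbonyl reductase, by 1.11, while ABCC3, a conjugate exporter, rose by 0.998 and UGDH, which makes UDP-glucuronate, by 0.32.

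Of 16 tested genes of haem synthesis and breakdown, 5 rose and 10 fell. HMOX2, the constitutive haem oxygenase, was counted 6766 and 6973 times in controls and 4032 and 3968 times with VIRMA in excess. HMOX2 fell by 0.80 ± 0.0412 (SE, edgeR, adjusted p = 8.29e-19), so both haem oxygenase genes were lower. UROD, an enzyme of haem synthesis, fell by 0.86. SLC25A38, a mitochondrial carrier needed for haem synthesis, rose by 0.30 and FLVCR2, a membrane transporter, by 0.36.

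Of 17 tested genes of iron uptake, sensing and release, 5 rose and 7 fell. TFRC, the transferrin receptor, whose mRNA the iron regulatory proteins stabilise, had counts of 43568 and 44703 in the control cells and 35590 and 35004 with VIRMA overexpressed. TFRC fell by 0.34 ± 0.0285 (SE, edgeR, adjusted p = 5.02e-13), while FTH1 and FTL rose. NCOA4, the receptor that delivers ferritin to lysosomes, was at 0.02 (adjusted p = 0.654), and SLC40A1, the iron exporter ferroportin, at -0.11 (adjusted p = 0.103). SLC25A37, a mitochondrial iron importer, rose by 0.71 and SLC11A2, the divalent metal transporter, by 0.34. TFR2, a second transferrin receptor, fell by 0.57. The part of the iron regulatory proteins in these changes, which went both ways, was not tested.

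**Figure D4:**
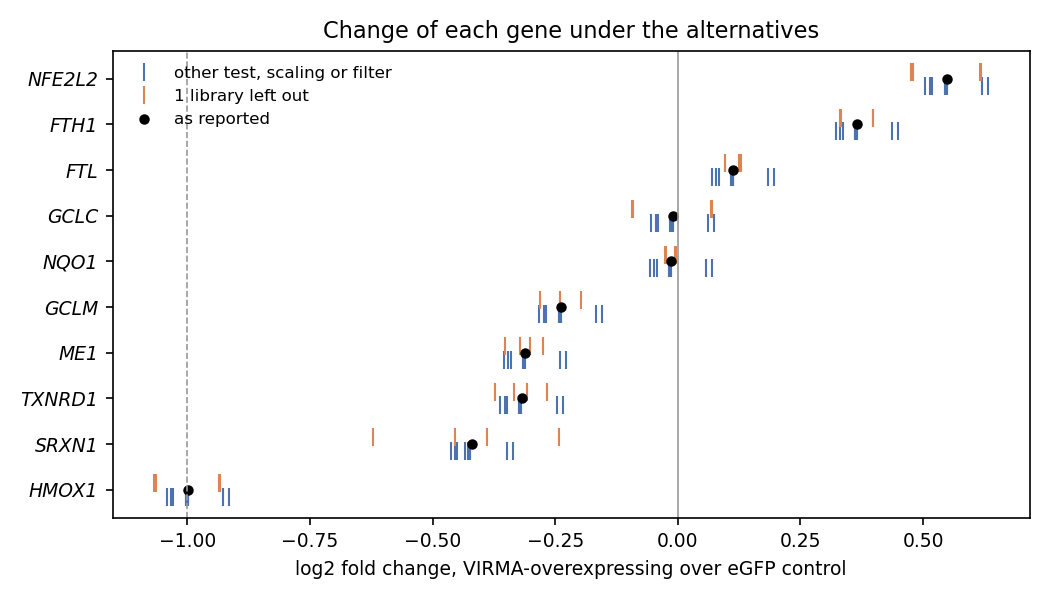
Log2 fold change of each member under the main test and under each alternative scaling, filter, tool and left-out library. HMOX1 straddles -1, NFE2L2 and FTH1 stay above 0 and TXNRD1, ME1, GCLM and SRXN1 below 0, and NQO1 and GCLC lie on both sides of 0.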

How the data were processed

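The deposited values were raw counts per gene in 4 libraries. Per the study's methods and the submitters' processing notes, the authors trimmed reads with Trimmomatic 0.39, aligned them to hg38 (Ensembl 86) with STAR 2.5.2a and counted them with featureCounts. The strand setting and the treatment of multi-mapping reads are not given in the sources used here. Columns were tied to groups by name, and the VIRMA-overexpressing columns, which carry a number, by being the remaining group. RPKM used the deposited exonic lengths. For the filter, counts were scaled by library totals. The reported RPKM levels were scaled by the summed counts of the tested genes, corrected by TMM. Genes above 1 RPKM in at least 2 libraries were tested with edgeR 4.0.16 in R 4.3.3 (TMM scaling, glmQLFTest, group as the only term, Benjamini-Hochberg over 12205 genes). On simulated counts for this comparison (12205 genes, 200 changed) 93% of changed genes were recovered and 9 unchanged genes were called. The simulation gave all genes the same dispersion and changed a far smaller share than the 71% called in these libraries. It held no change as small as those of FTL, FTH1, GCLM, TXNRD1 and ME1. It therefore checks that the code runs as meant and gives no error rate or power for these data. DESeq2 1.42.0, limma-voom (limma 3.58.1), other scalings and filters, a replicate block and left-out libraries were alternatives; pseudogene rows and unshared exonic lengths bore on FTL, FTH1 and SRXN1. Library totals ran from 81446932 to 86375474 counts, and with 2 libraries a group an exact permutation test cannot go below 0.33. Members and lists were chosen with earlier results of these data known. From each list, the 2 largest rises and 2 largest falls past the adjusted p threshold were named, plus KEAP1, BACH1, SLC7A11, TXN, GSR, NCOA4, TFRC and SLC40A1. Some genes that this rule picks are not reported here. Marker genes and BEST1 were named after their values were seen.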

Additional observations from a re-analysis of the deposited data

How the results depend on the processing

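The number of members that fell past both thresholds was 0 in the reported test. It was 1, HMOX1, with DESeq2, with DESeq2 size factors in edgeR, with filterByExpr, without any filter and with a floor of 10 counts per library, and it ran from 0 to 1 when 1 library was left out. The pathway genes that rose past both thresholds numbered 3, against 5 with upper-quartile factors or library totals and 6 under those 3 filters. The members' median of -0.126 moved to -0.0545 with upper-quartile factors, -0.0425 with library totals and -0.170 with filterByExpr, and ran from -0.168 to -0.110 with 1 library left out. NQO1 turned to 0.058 (upper-quartile) and 0.070 (totals). GCLC turned to 0.061 and 0.073 with the same scalings, 0.070 without control replicate 1 and 0.067 without VIRMA-overexpressing replicate 2, and ran from -0.093 to 0.070 over the left-out libraries. The cause of these shifts was not tested. These scalings raised the median of all genes by 0.0715 and 0.0835. The labels' replicate numbers are only a shared number (correlation of same-numbered deviations 0.0753): with the replicate block 3 members rose and 5 fell, the median was -0.126, and no member's call changed. Leaving a group with 1 library assumes that it varies like the other group. With 2 libraries a group, small differences such as those of NQO1 and GCLC were not detectable, which does not show that they were absent.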
